A study of Mus musculus with 8 samples.

Results

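The 32 genes described here encode the core proteins of base excision repair (20 genes) and nucleotide excision repair (12 genes). They were taken by symbol as genes of these pathways, and all 32 were found among the 37310 genes of the count tables. In pooled 2-cell mouse embryos, 31 of the 32 had enough counts to be tested, within a test of 14970 genes. The exception was the DNA glycosylase gene Neil1, which was close to 0 in every pool.

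Base excision repair removes a damaged or unusual base: a DNA glycosylase cuts the base off, an endonuclease opens the strand at the empty site, and a polymerase and a ligase fill and seal the gap. Nucleotide excision repair removes a short stretch of strand around a bulky lesion, after recognition proteins or a stalled RNA polymerase have called in the helicases of TFIIH and a pair of endonucleases. GADD45 proteins are small stress-inducible adaptors, and excision repair is the route through which they have been proposed to remove methylated cytosine.

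The embryos were C57BL/6N and either wild-type or double knockout (DKO) for Gadd45a and Gadd45b. Their mothers had the genotype of the embryos, were 3 to 4 weeks old, were superovulated and mated naturally, and gave embryos 20 h after the vaginal plug. A pool held 23 to 35 embryos of 1 litter, and there were 4 pools per genotype, numbered 1 to 4 in each; values by pool are given in that order. Both genes were lost in the whole animal, so loss of the protein stored in the egg and loss of the protein made by the embryo cannot be told apart. PolyA RNA was copied with a SMART-Seq v4 kit in 11 PCR cycles, and no molecular identifiers are described, so a read does not stand for 1 molecule. In pooled RNA, fewer cells carrying a transcript and less of it per cell cannot be told apart.

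The libraries held 21329736 to 23919114 counts, with 18433 to 20427 genes detected. Gadd45b checked the labels, at 36.1 to 62.3 CPM (counts relative to the TMM-scaled library total) in wild-type and 0.0442 to 0.615 in DKO. Gadd45a stood at 15.7 to 22.4 CPM in wild-type and 7.21 to 10.8 in DKO. Although its pools did not overlap, edgeR did not call it, at a log2 fold change of −1.09 (adjusted p = 0.303). DESeq2 did, with an adjusted p of 0.000794. Which part of Gadd45a was deleted is not stated in the sources used, and its remaining reads check no label. All 5 matched markers of the 2-cell stage were present, summing to 454 to 710 CPM in wild-type and 552 to 873 in DKO. The 11 oocyte-derived markers summed to 7107 to 12227 CPM in wild-type and 11906 to 20277 in DKO, with the highest sum in DKO pool 1. Of 11 cumulus and granulosa cell markers, Ptx3, Foxl2, Amh and Inhba were at 0 in every library, and Cd44, Fshr and Lhcgr reached at most 0.0460 CPM. Tnfaip6 was present in every pool at 5.53 to 11.2 CPM and Cyp19a1 at 1.30 to 4.02. Has2 and Star reached at most 1.21 and 1.56 CPM. The sum of the 11 was 8.74 to 14.1 CPM across all pools. The 4 blood markers summed to 158 CPM in DKO pool 4 and 126 in wild-type pool 1, against 1.70 to 3.17 in the other pools. DKO pool 1 differed most from the rest, with a limma-voom quality weight of 0.365. Values without it are given for some of the genes in which it stood apart. They are not given for others, among them Parp2, Neil3, Smug1, Nthl1 and Ercc5.

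No transcript of the excision repair machinery was called different between the genotypes. Of the 31 genes tested, 0 were called at an adjusted p under 0.05 by edgeR's quasi-likelihood test, where 0.0267% of all genes tested were called. DESeq2 also called 0 of them, where it called 0.314% of all genes. With limma-voom 0 of them were called as well, where it called 5 genes among all those tested. An unadjusted p under 0.05 was found for 2 of 31 (6.45%), Rad23b with a positive and Ddb2 with a negative log2 fold change, beside 10.2% of all genes. In 2 genes, Mbd4 and Rad23b, the pools of the genotypes did not overlap in TMM-scaled CPM, which was the case for 5.34% of all genes. With scaling by library size alone this held for Rad23b and not for Mbd4. The first share was below that of all genes and the second was near it. The median log2 fold change of the 31 genes (DKO minus wild-type) was 0.03, with 16 positive and 15 negative, beside a median of 0.01 over all genes, 48.8% of them negative. Without DKO pool 1 the median was 0.00685 and 0 of the 31 stood at an unadjusted p under 0.05, beside 5.71% of all genes. The p-values weigh the difference between the genotypes against the spread between pools, each a separate litter.

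The size of difference that the data leave room for was limited for most of the genes. The 95% intervals of 23 of the 31 log2 fold changes lay wholly between −1 and 1, that is, within a 2-fold difference either way. Those of the other 8 (Smug1, Ogg1, Nthl1, Neil2, Mpg, Xpc, Ercc2 and Ercc5) reached past it, and all 8 averaged 5.27 CPM or less in either genotype. The narrowest interval was 0.311 on either side of the estimate and the widest, that of Ercc2, was 1.36. The median absolute log2 fold change was 0.17 over the members and 0.27 over all genes, which were not matched to the members for level.

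**Figure D1:**
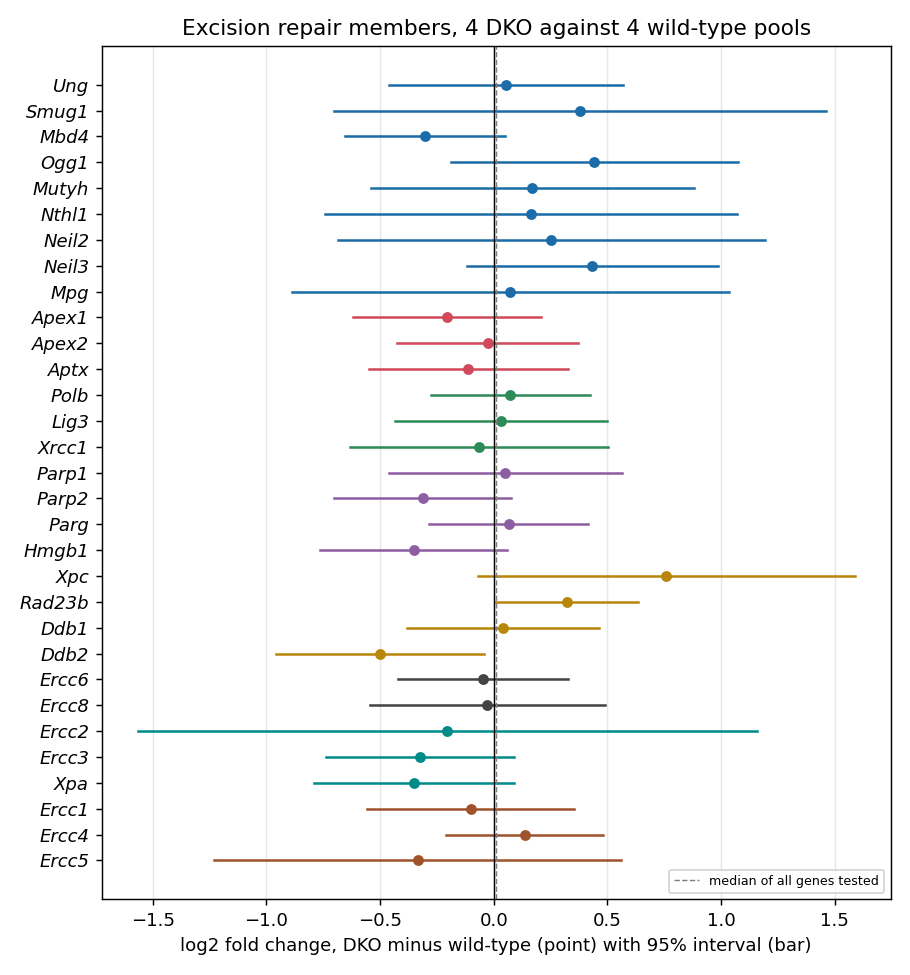
Log2 fold change of each of the 31 tested members, DKO minus wild-type, with 4 pools per genotype. Points are edgeR estimates, bars are 95% intervals, colours group genes by role in the order of the text, and the dashed line is the median of all genes tested; only the bars of Rad23b and Ddb2 leave out 0.

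The members differed widely from each other in level. Levels of different genes are compared as CPM per kb of exon, which corrects for gene length. In wild-type pools the highest was Hmgb1, at 137 ± 15.9 CPM per kb (SD, n = 4), and the lowest was Neil1, at 0.152 ± 0.154 (SD, n = 4), a 901-fold range. Of the 32 genes, 18 lay above 2.84 CPM per kb, the median of all genes tested. After Hmgb1 came Parp2 at 43.6 ± 6.16, then Xpa at 23.0 ± 6.31, Polb at 18.7 ± 2.93, Ercc1 at 18.3 ± 4.42 and Apex1 at 17.3 ± 2.54 (SD, n = 4 each). Hmgb1 and Parp2 stood clear of their neighbours in that order, whereas the pools of Xpa, Polb, Ercc1 and Apex1 overlapped. The low end held Xpc at 0.324, Smug1 at 0.284, Neil2 at 0.246 and Ercc2 at 0.245 CPM per kb, whose pools overlapped too. Dividing by the longest transcript instead of all exon bases kept Hmgb1 and Parp2 highest and Neil1 lowest and put Polb next after Parp2, at 61.3 ± 9.61 CPM per kb (SD, n = 4).

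**Figure D2:**
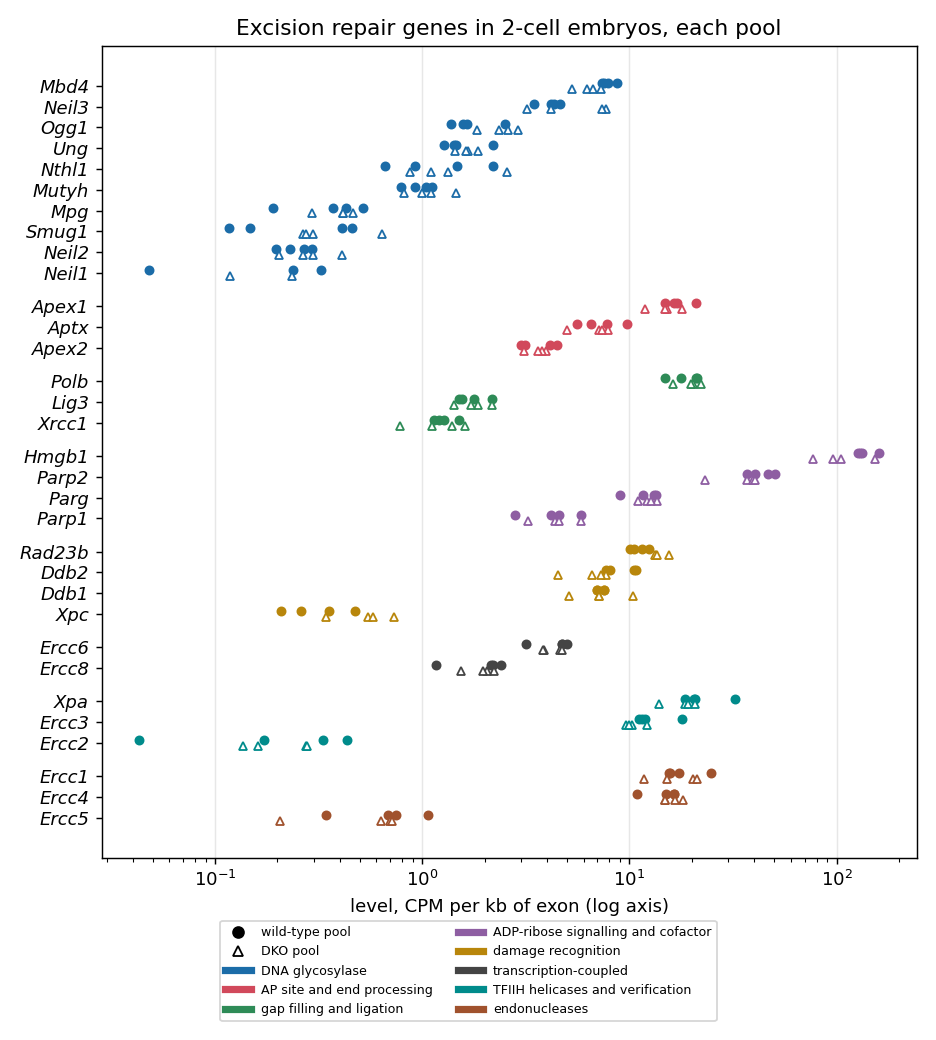
Level of each of the 32 members in each pool, in CPM per kb of exon on a log axis, grouped by role and ordered by wild-type mean within a role. Filled circles are wild-type pools and open triangles DKO pools, and 3 pools of Neil1 with 0 counts are not drawn. The genotypes overlap, to varying degrees, in every gene but Mbd4 and Rad23b. The genes spread from Neil1 at 0.152 to Hmgb1 at 137 CPM per kb in wild-type.

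Genes acting at the same step differed in level to varying degrees. The ratio of Parp2 to Parp1, both sensors of strand breaks, was 10.4 ± 2.16 in wild-type (SD, n = 4, per kb of exon). Rad23b exceeded its partner Xpc by 37.0 ± 10.2 times, and Polb exceeded Xrcc1, the scaffold it binds, by 14.6 ± 1.41 times (SD, n = 4 each). Among the NEIL glycosylases, Neil3 exceeded Neil2 by 17.5 ± 4.86 times (SD, n = 4). Ercc1 and Ercc4, which form 1 nuclease, were at similar levels, with a ratio of 1.33 ± 0.641, whereas Ercc4 exceeded Ercc5, the other nuclease of the pathway, by 24.2 ± 13.3 times (SD, n = 4 each). Other pairs were closer, with ratios of 4.76 ± 0.668 for Apex1 to Apex2, 2.46 ± 1.14 for Ercc6 to Ercc8 and 0.806 ± 0.176 for Ddb1 to Ddb2 (SD, n = 4 each). In damage recognition, Rad23b, Ddb2 and Ddb1 stood at 11.1, 9.24 and 7.23 CPM per kb. These ratios rest on exon lengths annotated on GRCm38, whereas the counts were made on an older build. They also depend on the length used. Per kb of the longest transcript, wild-type ratios were 1.03 ± 0.481 for Ercc6 to Ercc8 and 2.96 ± 0.416 for Apex1 to Apex2. That of Parp2 to Parp1 was 14.6 ± 3.03 (SD, n = 4 each).

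The DNA glycosylases, which start base excision repair, are 10 genes, and 9 were tested. The glycosylase transcript with the highest wild-type mean was Mbd4, at 7.86 CPM per kb of exon against 4.15 for Neil3, and its protein removes thymine or uracil paired with guanine, the product of cytosine or methylcytosine deamination. Per kb of the longest transcript the means of Mbd4 and Neil3 were closer, at 11.5 ± 0.853 and 10.2 ± 1.21 (SD, n = 4 each). Mbd4 was also the glycosylase whose pools separated by genotype in TMM-scaled CPM, with lower values in DKO. Mbd4 (ENSMUSG00000030322, chromosome 6) stood at 45.9, 41.4, 39.6 and 39.1 CPM in wild-type pools 1 to 4 and at 33.0, 27.9, 38.5 and 35.2 CPM in DKO pools 1 to 4. Every DKO pool lay below every wild-type pool, although DKO pool 3 and wild-type pool 4 differed by little. The means were 41.5 ± 3.08 CPM in wild-type and 33.6 ± 4.42 in DKO (n = 4 each, SD). By edgeR the log2 fold change came to −0.30 ± 0.16 (SE), at an adjusted p of 0.518, and DESeq2 gave an adjusted p of 0.399, so the difference was not called. Without DKO pool 1 it was −0.30 as well. The separation depended on the scaling: with library size alone, DKO pool 3 at 39.5 CPM lay above wild-type pool 4 at 36.6 CPM.

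Because Mbd4 and Rad23b are the members whose pools separated in TMM-scaled CPM, the 250 bases before their start sites are shown, as RefSeq gives them on GRCm38.p6. The Mbd4 stretch is chr6:115853342-115853591 on the minus strand and the Rad23b stretch is chr4:55349792-55350041 on the plus strand. Each is printed 5′ to 3′ on the strand of its gene, with matches to GGGCGG (the SP1 box) and to CCAAT or its reverse complement ATTGG (the NFY box) in capitals.
Mbd4: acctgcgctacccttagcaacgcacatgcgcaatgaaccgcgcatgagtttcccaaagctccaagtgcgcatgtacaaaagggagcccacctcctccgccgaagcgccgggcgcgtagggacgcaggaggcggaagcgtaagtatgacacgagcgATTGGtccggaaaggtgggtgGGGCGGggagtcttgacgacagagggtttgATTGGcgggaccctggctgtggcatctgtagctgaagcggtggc
Rad23b: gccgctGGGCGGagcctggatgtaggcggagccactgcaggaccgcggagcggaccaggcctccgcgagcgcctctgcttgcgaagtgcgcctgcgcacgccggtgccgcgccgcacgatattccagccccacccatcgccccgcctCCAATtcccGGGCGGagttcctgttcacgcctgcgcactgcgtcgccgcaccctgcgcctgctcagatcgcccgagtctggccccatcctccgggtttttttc
The Mbd4 stretch holds 1 GGGCGG and 2 ATTGG, and the Rad23b stretch holds 2 GGGCGG and 1 CCAAT. They contain 22 and 31 CG dinucleotides, respectively.

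The other glycosylases had mostly positive log2 fold changes, none of which passed the test. Of the 9 glycosylases tested, 8 had a positive value in DKO and Mbd4 alone a negative one, with a median of 0.17. When DKO pool 1 was left out, 4 of the 9 were negative and the median was 0.05. Ogg1, which removes oxidised guanine, stood at 5.48, 3.58, 2.99 and 3.44 CPM in wild-type pools and 6.30, 4.00, 5.66 and 5.12 in DKO pools. Wild-type pool 1 overlapped the DKO pools and the other wild-type pools lay below them. Its log2 fold change was 0.44 ± 0.30 (SE), with an adjusted p of 0.581 by edgeR. Neil3, which acts on oxidised bases and on crosslinked DNA, stood at 19.3, 23.1, 25.7 and 24.1 CPM in wild-type pools and 42.9, 17.7, 40.8 and 23.1 in DKO pools. DKO pools 1 and 3 were above all others and DKO pool 2 was the lowest of all 8, so the spread in DKO (SD 12.6) exceeded that in wild-type (SD 2.73). The Neil3 log2 fold change was 0.43 ± 0.26 (SE), with an adjusted p of 0.544 by edgeR.

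Ung, the main uracil glycosylase, averaged 8.66 ± 2.24 CPM in wild-type and 9.00 ± 0.934 in DKO (n = 4 each, SD). Smug1, another uracil glycosylase, averaged 1.74 ± 1.08 and 2.27 ± 1.11 CPM, and DKO pool 1 at 3.93 was the highest of all 8. Nthl1, which removes oxidised pyrimidines, averaged 3.56 ± 1.84 and 3.99 ± 2.06 CPM, again with DKO pool 1 highest, at 6.97. Mutyh, which removes adenine paired with oxidised guanine, averaged 2.52 ± 0.370 and 2.84 ± 0.699 CPM. Neil2, which also removes oxidised bases, averaged 1.24 ± 0.213 and 1.47 ± 0.434 CPM. In all 5 of these genes the pools of the genotypes overlapped.

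Mpg, which removes alkylated purines, averaged 1.41 ± 0.519 CPM in wild-type and 1.49 ± 0.274 in DKO (n = 4 each, SD). On the GRCm38 annotation 35.7% of its exon bases lie opposite Nprl3, whose own mean was 5.86 CPM in wild-type and 2.30 in DKO. The sources used here do not state whether the counting used strand, so reads of Mpg and Nprl3 cannot be told apart there. Neil1 had 26 counts in all in wild-type and 15 in DKO, with no count in wild-type pool 2 and DKO pools 1 and 4. A fold change was not computed for it, since the test left it out at this depth.

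Downstream of the glycosylases, transcripts of the enzymes that cut the empty site, clean the ends and seal the gap did not differ detectably. The 6 genes had log2 fold changes from −0.21 (Apex1) to 0.07 (Polb), and adjusted p by edgeR was 0.696 or more. Apex1, the main endonuclease for empty sites, stood at 29.6, 24.0, 21.1 and 23.4 CPM in wild-type pools and at 16.9, 21.5, 25.6 and 21.2 CPM in DKO pools. The highest value was in wild-type pool 1, the lowest in DKO pool 1, and the rest overlapped. The Apex1 log2 fold change was −0.21 ± 0.19 (SE), with an adjusted p of 0.696 by edgeR. It was −0.12 without DKO pool 1 and −0.00509 without both libraries numbered 1. On GRCm38, 61.7% of Apex1 exon bases lie opposite Pip4p1, which stood at 26.1 ± 5.24 CPM in wild-type and 30.8 ± 7.45 in DKO (n = 4 each, SD). Reads of Apex1 and Pip4p1 cannot be told apart there.

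Polb, the polymerase that fills the gap, stood at 70.2, 82.3, 83.1 and 58.7 CPM in wild-type pools and at 79.8, 78.2, 87.2 and 64.2 CPM in DKO pools. The genotypes overlapped over nearly their whole range. Its log2 fold change was 0.07 ± 0.16 (SE), with an adjusted p of 0.882 by edgeR. The 95% interval, from −0.28 to 0.42, leaves a 2-fold difference outside.

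Apex2, another endonuclease for empty sites, averaged 32.2 ± 6.41 CPM in wild-type and 31.6 ± 3.24 in DKO, and Aptx, which clears failed ligation ends, averaged 43.5 ± 10.5 and 40.3 ± 7.61 (SD, n = 4 each). Apex2 shares 3.56% of its exon bases with the blood marker Alas2 on the other strand, which was at 4.05 CPM in DKO pool 4, 3.11 in wild-type pool 1 and at most 0.230 elsewhere. Lig3, the ligase, averaged 12.7 ± 2.21 CPM in wild-type and 13.0 ± 2.25 in DKO, and Xrcc1 averaged 7.45 ± 0.928 and 7.13 ± 2.08 (SD, n = 4 each). For Lig3, 25.1% of exon bases lie opposite Rffl, which averaged 15.7 and 13.5 CPM.

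Genes of ADP-ribose signalling, which marks strand breaks, and the chromatin cofactor Hmgb1 included the most abundant members. Hmgb1, a DNA-bending protein that aids long-patch repair, stood at 650, 636, 666 and 808 CPM in wild-type pools and at 385, 770, 524 and 483 CPM in DKO pools. In DKO, pools 1, 3 and 4 lay below every wild-type pool and pool 2 lay above all but 1. The means were 690 ± 79.7 CPM in wild-type and 541 ± 164 in DKO (n = 4 each, SD). The Hmgb1 log2 fold change was −0.35 ± 0.19 (SE), with an adjusted p of 0.523 by edgeR. It was −0.23 without DKO pool 1 and −0.58 without DKO pool 2, which was the 1 of 18 alternative fits with an unadjusted p under 0.05 (adjusted p = 0.305 by edgeR).

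Hmgb1 has many near-identical copies, and its counts are uncertain for that reason. On GRCm38, 43 other loci were at least 95% identical to it over at least 300 bases, and 19 of them were among the genes counted. Their summed CPM was 42.5% to 44.3% of that of Hmgb1 in every library, nearly all of it in the processed pseudogene Gm2710, which is 97.35% identical over 603 bases. The share did not separate the genotypes. The treatment of multi-mapping reads is not given in the sources used.

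Parp2, a sensor of strand breaks that adds ADP-ribose chains, stood at 146, 169, 134 and 183 CPM in wild-type pools and at 84.4, 135, 144 and 146 CPM in DKO pools. DKO pool 1 was well below the other 7 pools, which overlapped. Its log2 fold change was −0.31 ± 0.18 (SE), with an adjusted p of 0.538 by edgeR. Parp1, the founding enzyme of that family, averaged 23.0 ± 6.67 CPM in wild-type and 23.9 ± 5.54 in DKO, and Parg, which takes the chains apart, averaged 68.2 ± 11.8 and 71.4 ± 6.38 (SD, n = 4 each).

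**Figure D3:**
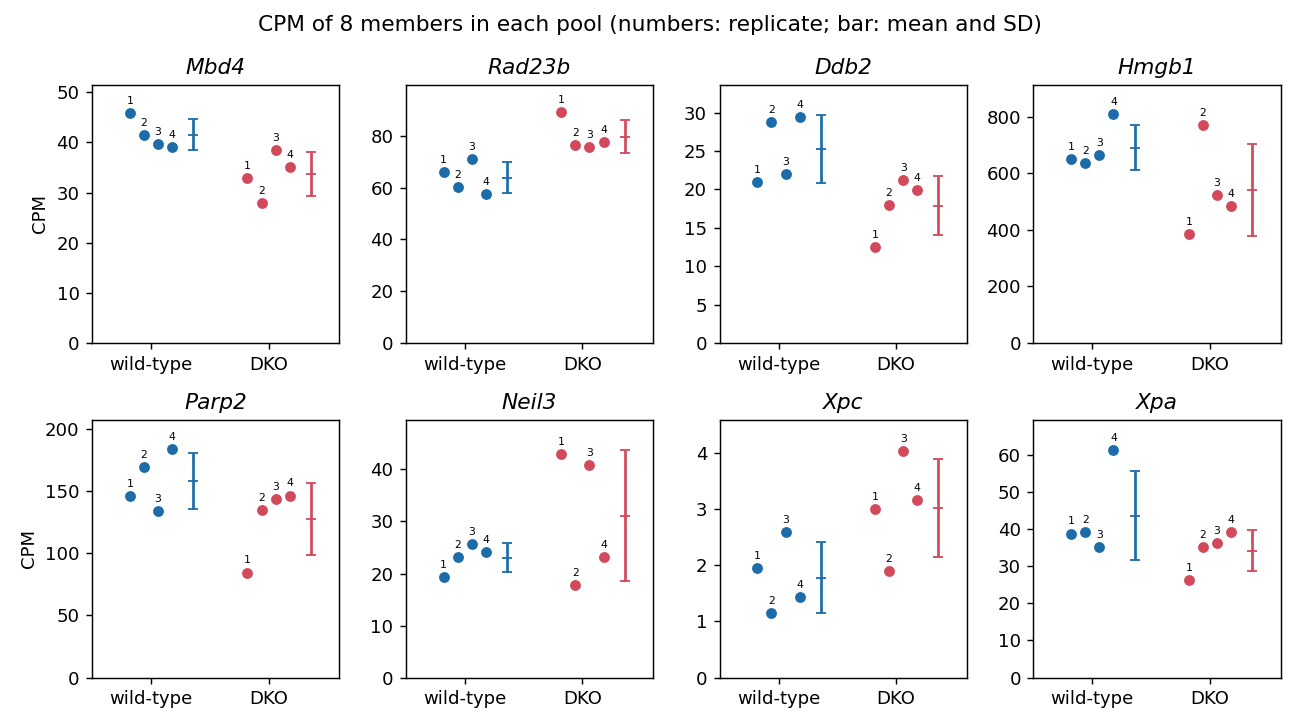
CPM of Mbd4, Rad23b, Ddb2, Hmgb1, Parp2, Neil3, Xpc and Xpa in each pool, 4 wild-type (blue) and 4 DKO (red), with replicate numbers above the points and bars for the mean and SD; each panel has its own axis from 0. Only Mbd4 (lower in DKO) and Rad23b (higher in DKO) show no overlap of the genotypes in these TMM-scaled values, and DKO pool 1 is the lowest of the 8 in Ddb2, Hmgb1, Parp2 and Xpa.

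Damage recognition was the step of nucleotide excision repair with the smallest p-values, in opposite directions for its members. Rad23b, which stabilises the lesion sensor XPC, was higher in all 4 DKO pools, and Ddb2, the ultraviolet-damage sensor, had a lower mean in DKO. Rad23b (ENSMUSG00000028426, chromosome 4) stood at 66.1, 60.3, 71.2 and 57.7 CPM in wild-type pools and at 89.1, 76.7, 75.8 and 77.7 CPM in DKO pools. The lowest DKO pool lay above the highest wild-type pool, and DKO pool 1 was set apart above the other DKO pools. The means were 63.9 ± 6.05 CPM in wild-type and 79.8 ± 6.26 in DKO (n = 4 each, SD), a 1.25-fold difference. By edgeR the log2 fold change came to 0.32 ± 0.15 (SE), at an adjusted p of 0.48, and DESeq2 gave an adjusted p of 0.356. Without DKO pool 1 it was 0.26 and no longer at an unadjusted p under 0.05 (adjusted p = 0.875 by edgeR). Of the 11 oocyte-derived markers, 9 had a positive and 2 a negative log2 fold change, and Zp1, Zp2, Zp3 and Nlrp5 lay within −0.016 to 0.007. An unadjusted p under 0.05 was found for 5 (45.5%), all higher in DKO, beside 10.2% of all genes. By edgeR 0 were called, beside 0.0267% of all genes. The markers' sum was highest in DKO pool 1, where Rad23b was highest too. Btg4, Omt2a and Omt2b made up most of that sum, at 5899, 5846 and 5088 CPM in that pool. The part of these markers in the Rad23b difference was not tested.

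Ddb2 (ENSMUSG00000002109, chromosome 2) stood at 21.0, 28.8, 22.0 and 29.4 CPM in wild-type pools and at 12.4, 18.0, 21.2 and 19.9 CPM in DKO pools. DKO pool 3 was just above wild-type pool 1, so the genotypes overlapped by that pair, and DKO pool 1 was the lowest. The means were 25.3 ± 4.40 CPM in wild-type and 17.9 ± 3.86 in DKO (n = 4 each, SD), a 1.41-fold difference. The log2 fold change of Ddb2 was −0.50 ± 0.21 (SE), with an adjusted p of 0.472 by edgeR and 0.312 by DESeq2. Without DKO pool 1 it was −0.37 and no longer at an unadjusted p under 0.05 (adjusted p = 0.875 by edgeR). On GRCm38, 23.8% of Ddb2 exon bases lie opposite Acp2, which was at 0.987 ± 0.566 CPM in wild-type and 1.39 ± 0.542 in DKO (n = 4 each, SD).

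Xpc, the general lesion sensor, was among the least abundant members and had the highest log2 fold change of the 31. It stood at 1.94, 1.15, 2.59 and 1.43 CPM in wild-type pools and at 3.00, 1.89, 4.02 and 3.16 CPM in DKO pools. DKO pool 2 lay within the wild-type range and the other 3 DKO pools lay above it. By edgeR the log2 fold change came to 0.76 ± 0.39 (SE), at an adjusted p of 0.496, with a 95% interval from −0.07 to 1.59. Ddb1, which joins DDB2 to a ubiquitin ligase, averaged 46.3 ± 2.10 CPM in wild-type and 47.7 ± 14.0 in DKO (n = 4 each, SD). The wild-type pools of Ddb1 were within 44.4 to 48.2 CPM, whereas DKO pools ran from 32.6 in pool 4 to 66.5 in pool 1.

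In transcription-coupled repair, which starts from a stalled RNA polymerase, neither gene differed detectably. Ercc6, the CSB remodelling protein, stood at 40.8, 64.2, 60.4 and 60.7 CPM in wild-type pools and at 49.7, 49.2, 59.3 and 60.6 CPM in DKO pools. All DKO pools lay within the wild-type range, which wild-type pool 1 extended downward. The Ercc6 log2 fold change was −0.05 ± 0.18 (SE), with an adjusted p of 0.936 by edgeR. Ercc8, the CSA subunit of a ubiquitin ligase, averaged 15.2 ± 4.23 CPM in wild-type and 14.9 ± 2.22 in DKO (n = 4 each, SD).

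The helicases of TFIIH, which open the DNA around a lesion, and Xpa, which checks the opened site, all had negative log2 fold changes that did not pass the test. Xpa stood at 38.8, 39.1, 35.2 and 61.3 CPM in wild-type pools and at 26.2, 35.3, 36.2 and 39.1 CPM in DKO pools. Wild-type pool 4 was far above and DKO pool 1 far below the other 6 pools, which overlapped. The Xpa log2 fold change was −0.35 ± 0.21 (SE), with an adjusted p of 0.54 by edgeR, and it was −0.25 without DKO pool 1. Ercc3, the XPB helicase, stood at 51.1, 31.7, 32.6 and 33.5 CPM in wild-type pools and at 29.0, 27.1, 28.2 and 34.6 CPM in DKO pools, with a log2 fold change of −0.32 ± 0.19 (SE). Wild-type pool 1 was the highest of Ercc3 by a wide margin. Ercc2, the XPD helicase, had 92 counts in all in wild-type and 80 in DKO, and its log2 fold change of −0.20 ± 0.64 (SE) had the widest interval of the members, from −1.57 to 1.16.

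The endonucleases that cut on either side of the lesion showed no detectable difference. Ercc1, the partner that places the XPF nuclease, stood at 53.8, 48.5, 48.4 and 77.3 CPM in wild-type pools and at 36.7, 47.3, 62.7 and 65.8 CPM in DKO pools. The pools overlapped throughout, with wild-type pool 4 highest and DKO pool 1 lowest. The Ercc1 log2 fold change was −0.10 ± 0.21 (SE), with an adjusted p of 0.873 by edgeR, and its sign was positive without DKO pool 1, at 0.03. Ercc4, the XPF nuclease, averaged 98.5 ± 17.6 CPM in wild-type and 108 ± 10.5 in DKO, and Ercc5, the XPG nuclease, averaged 4.15 ± 1.72 and 3.30 ± 1.41 (SD, n = 4 each). DKO pool 1 was the lowest of Ercc5, at 1.21 CPM, against 3.69 to 4.20 in the other DKO pools.

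The median coefficient of variation of the 31 genes was 18.8% in wild-type and 18.9% in DKO, beside 23.1% and 25.9% over all genes tested. The genes compared were not matched for level, so these medians do not show the members to be steadier than genes of like level. DKO pool 1 held the highest or lowest value of the 8 pools in 17 of the 31 genes (54.8%), beside 52.2% of all genes. It was highest in 7 (Rad23b, Ddb1, Neil2, Neil3, Smug1, Ogg1 and Nthl1) and lowest in 10 (Apex1, Aptx, Lig3, Xrcc1, Hmgb1, Parp2, Ddb2, Xpa, Ercc1 and Ercc5).

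The rest of the excision repair pathway was read from 45 further genes, among them the polymerases, the clamp and its loader, RPA, the other TFIIH subunits and ubiquitin ligase subunits. Of these, 43 were tested and 0 were called by edgeR, DESeq2 or limma-voom. Over all genes tested, edgeR called 0.0267%, DESeq2 0.314% and limma-voom 5 genes. An unadjusted p under 0.05 was found for 6 of 43 (14.0%), beside 10.2% of all genes, 3 with positive values (Dut, Poll and Uvssa) and 3 with negative values (Pold2, Gtf2h3 and Gtf2h4). The median log2 fold change was −0.08, with 18 positive and 25 negative (58.1%), beside 48.8% negative over all genes. Pools did not overlap in 3 of the 43 (6.98%), beside 5.34% of all genes, Dut and Uvssa with higher and Gtf2h3 with lower values in DKO. Pold2 and Uvssa were named after their values were seen.

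Dut, the enzyme that destroys dUTP and so keeps uracil out of DNA, came closest to being called. It stood at 454, 503, 601 and 389 CPM in wild-type pools and at 983, 723, 747 and 654 CPM in DKO pools. Every DKO pool lay above every wild-type pool. DKO pool 1 was the highest, as it was for the summed oocyte-derived markers, whose part in the Dut difference was not tested. By edgeR the log2 fold change came to 0.67 ± 0.17 (SE), at an adjusted p of 0.453, and DESeq2 gave an adjusted p of 0.0607. When DKO pool 1 was left out the log2 fold change was 0.54 (adjusted p = 0.753 by edgeR). Poll, a gap-filling polymerase, had a low level, at 0.259, 1.19, 0.670 and 0.894 CPM in wild-type pools and 1.48, 3.25, 1.77 and 1.16 in DKO pools, overlapping between wild-type pool 2 and DKO pool 4. Its log2 fold change was 1.34 ± 0.55 (SE), with an adjusted p of 0.471 by edgeR.

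Gtf2h3, a core subunit of TFIIH, stood at 95.6, 99.6, 91.3 and 120 CPM in wild-type pools and at 61.5, 75.0, 72.7 and 84.4 CPM in DKO pools. The highest DKO pool lay below the lowest wild-type pool. Its log2 fold change was −0.47 ± 0.15 (SE), with an adjusted p of 0.469 by edgeR, and it was −0.40 without DKO pool 1 (adjusted p = 0.835 by edgeR). Gtf2h4, the subunit that anchors the XPB helicase, stood at 19.0, 14.8, 10.9 and 17.3 CPM in wild-type pools and at 9.43, 7.99, 14.9 and 7.16 CPM in DKO pools, overlapping through DKO pool 3. Its log2 fold change was −0.65 ± 0.27 (SE), with an adjusted p of 0.471 by edgeR.

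Tdg, the glycosylase that removes oxidised forms of methylcytosine, was not tested, with 10 counts in all in wild-type and 2 in all in DKO. Its sequence is 98.7% identical to the processed pseudogene Tdg-ps over 2968 bases, and Tdg-ps had 0 counts in every library. Whether reads shared with such copies were lost in counting was not tested, and the low Tdg counts are uncertain for that reason. Fen1, the flap nuclease of long-patch repair, had 39 and 31 counts and was not tested either.

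**Figure D4:**
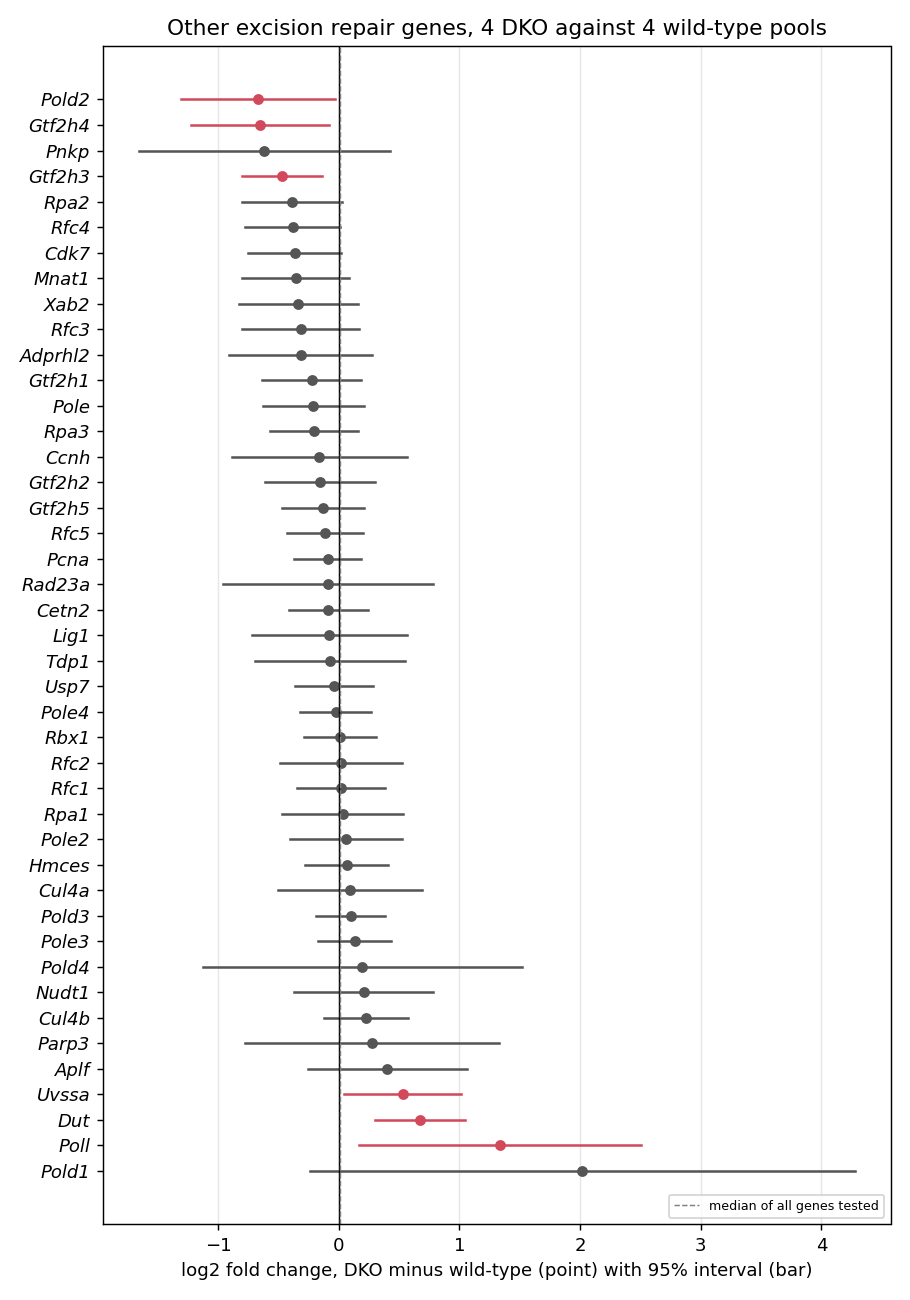
Log2 fold change, DKO minus wild-type, of the 43 tested excision repair genes that are not among the 32 members, ordered by value, with 4 pools per genotype. Points are edgeR estimates, bars are 95% intervals, and red marks the 6 genes at an unadjusted p under 0.05; Dut lies at 0.67 and Gtf2h3 at −0.47, and none of the 43 was called.

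RefSeq promoters on GRCm38.p6, 250 bases before to 50 after a start site, were matched for 26 of the 32 genes, 30 promoters in all. The missing entries were Neil2, Xpc, Ddb2, Polb, Apex2 and Ercc3. The members' promoters held a median of 22 CG dinucleotides (2 to 45), beside 19 in promoters of the genes tested and 7 in all 32851 promoters. Hmgb1 had the highest number. The sequence GGGCGG (SP1), searched on both strands like the others, was found in 66.7% of the members' promoters, beside 58.2% of those of the genes tested and 35.7% of all. CCAAT (NFY) was found in 56.7%, beside 38.7% and 37.4%, CCGGAAG (ETS) in 26.7%, beside 16.3% and 8.86%, and CACGTG (E-box) in 23.3%, beside 9.50% and 7.15%. CGCATGCG (NRF1) was found in the promoters of Ercc6 and Xpa, and TGACGTCA (CRE) in that of Aptx. The 7 genes with CACGTG were Apex1, Ercc6, Ercc8, Hmgb1, Lig3, Parp1 and Parp2, none of which was called. A match is a description of the letters and not of binding.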

How the data were processed

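PolyA RNA of 8 pools of 2-cell embryos was sequenced as single reads of 85 cycles. The authors deposited 1 table of raw counts per gene for each library, not normalized. The submitters' processing notes list featureCounts 1.5.1 (Subread), STAR 2.5.2b, DESeq2 1.18.1, FastQC 0.11.5 and bcl2fastq 2.19.1, with the builds mm9 and NCBIM37. The gene annotation and the treatment of strand and of reads mapping to several places are not given in the sources used here.

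Counts of all 37310 genes were filtered with filterByExpr (14970 kept), TMM-scaled and tested with edgeR 4.0.16 (R 4.3.3, robust quasi-likelihood test), over all 8 libraries with no covariate. P-values were adjusted by Benjamini-Hochberg over all genes tested, with a threshold of 0.05. SE and 95% intervals of log2 fold changes come from that fit. Symbols, exon lengths, overlaps and copies came from GENCODE release M21 on GRCm38, which is newer than the build counted on, and promoters from RefSeq on GRCm38.p6. All 32 members are named, with the value in every pool and full statistics for those at an unadjusted p under 0.05, for those without overlap and for the member with the highest wild-type level in each role. Beyond that rule, Ogg1, Neil3, Parp2, Xpc and Ercc3 are given by pool as well. Of the other excision repair genes, the 2 with the smallest p in each direction and Tdg are named.

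The members and lists were chosen with earlier results of these data known. Alternatives were DESeq2 1.42.0, limma-voom (limma 3.58.1) with quality weights, other scalings, filters and thresholds, a replicate block, embryos per pool as a covariate and each library left out. Data were simulated in 3 runs for this comparison, with 200 of 14970 genes changed. The edgeR test found 51% of the 2-fold changes and 92.7% of the 4-fold changes, and made 8 false calls on average. The changed genes were drawn only from those above a floor on mean CPM, and no pool was made to stand apart as DKO pool 1 does. The shares found therefore do not cover the least abundant members, such as Ercc2, Neil2 and Mpg.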

Additional observations from a re-analysis of the deposited data

Results flagged for a closer look

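In 6 of 72 groups of 4 pools (the 32 members, Dut, Poll, Gtf2h3 and Gtf2h4, each in both genotypes), 1 pool lay far from the other 3 by Dixon's test at 95%, where chance gives about 1 in 20, or 3.6 of 72. In DKO pool 1, Smug1 was at 3.93 CPM against 1.63 to 1.81 in the other DKO pools. In the same pool Rad23b was at 89.1 CPM against 75.8 to 77.7, and Ercc5 was at 1.21 CPM against 3.69 to 4.20. In wild-type pool 1, Ercc6 was at 40.8 CPM against 60.4 to 64.2 in the other wild-type pools, and Ercc3 was at 51.1 CPM against 31.7 to 33.5. In wild-type pool 4, Xpa was at 61.3 CPM against 35.2 to 39.1.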

How the results depend on the processing

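The number of members called was 0 under every alternative run, and the adjusted p of a member was 0.276 or more in all 18 alternative fits. The median log2 fold change of the members was −0.04 to 0.09 over those fits. Over all genes, 4 were called, beside 47 with DESeq2, 7 with no filter on low counts and 1 with a mean of at least 10 CPM. Members without overlap numbered 2 (5.34% of all genes), beside 3 with RLE size factors (5.30%), 1 with library size alone (Rad23b; 5.36%) and 2 to 4 with each library left out in turn (6.78% to 13.3%). Without both libraries numbered 1 they numbered 5 (11.0% of all genes). With fewer pools non-overlap is more common for all genes, and a pair of groups that do not overlap stays apart by construction, so these counts say nothing of stability. Those added were Hmgb1 and Xpc without DKO pool 2 (12.2%), Ddb2 without DKO pool 3 (8.72%) and Ercc3 without DKO pool 4 (9.29%). Ogg1 and Ddb2 were added without wild-type pool 1 (8.57%), Ung, Ogg1 and Ddb2 without both libraries numbered 1, and Ddb2 with RLE size factors. Log2 fold changes near 0 changed sign. Ercc1 was 0.0836 with limma-voom, 0.0151 without both libraries numbered 1 and −0.224 to 0.0767 with each library left out. Ercc6 was 0.00367 with library size alone and −0.180 to 0.0149 with each library left out, and Polb was −0.0275 to 0.153 with each library left out. The cause was not tested. Unadjusted p was under 0.05 in 7 of 18 fits for Rad23b and 13 of 18 for Ddb2, and in 0 of 18 for Mbd4. With a replicate block, 4 genes and 0 members were called and the members' median was 0.03. After the mean of each genotype was taken off the log2 CPM of every gene, same-numbered pools correlated at −0.00612 to 0.182. Pools with different numbers correlated at −0.335 to 0.377, so the numbers gave no sign of a pairing. Low counts limit Neil1, Ercc2, Tdg and Fen1.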

Other observations

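TFIIH, the complex of helicases and a kinase that serves both transcription and nucleotide excision repair, has 10 subunits, which were grouped here after their values were seen. All 10 had a negative log2 fold change (Ercc2, Ercc3, Gtf2h1 to Gtf2h5, Cdk7, Ccnh and Mnat1), with a median of −0.27, beside 48.8% negative over all genes tested. None was called by edgeR, where 0.0267% of all genes were. Gtf2h3 and Gtf2h4 stood at an unadjusted p under 0.05, which is 2 of 10 (20%), beside 10.2% of all genes. DKO pool 1 was the lowest of the 8 pools in 6 of the 10, beside 25.1% of all genes tested. Cdk7, the kinase, stood at 310, 321, 283 and 402 CPM in wild-type pools and at 180, 321, 275 and 246 CPM in DKO pools. Mnat1, which holds the kinase together, stood at 67.0, 78.0, 59.3 and 56.8 CPM in wild-type pools and at 32.3, 67.8, 54.7 and 49.4 CPM in DKO pools. Both overlapped between the genotypes. Without DKO pool 1, 9 of the 10 subunits were negative with a median of −0.15, and without both libraries numbered 1, 7 of the 10 with a median of −0.07. With limma-voom quality weights 7 of the 10 were negative.

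Uvssa, which acts with the CSB protein on stalled RNA polymerase, stood at 6.17, 6.89, 5.77 and 5.41 CPM in wild-type pools and at 8.27, 8.35, 8.58 and 9.83 CPM in DKO pools. Every DKO pool lay above every wild-type pool, and DKO pool 1 was the lowest of the DKO pools. By edgeR the log2 fold change came to 0.53 ± 0.23 (SE), at an adjusted p of 0.471, and the gene was named after its values were seen.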
